A study of Mus musculus with 12 samples.

Results

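The cornified envelope genes Lce and Sprr were followed in RNA-seq of mouse scars. Every row of the count files whose symbol began with Lce or Sprr followed by a digit was taken, which gave 37 of 35976 genes, 21 Lce and 16 Sprr. The Lce rows were 14 Lce1 genes, 6 Lce3 genes and Lce6a, and the Sprr rows were Sprr1a, Sprr1b, 12 Sprr2 genes, Sprr3 and Sprr4. All but Sprr3 passed the filter on low counts, so that 36 were among the 18853 genes tested. Scars came from 4 groups of 3 male mice aged 8 to 12 weeks on a C57BL/6J background, namely the sham and traction groups of Tem1WT/WT mice and of Tem1lacZ/lacZ mice. The Tem1lacZ/lacZ line carries the lacZ reporter in place of the only Tem1 exon in the germ line, so that every cell lacks Tem1 (listed in the files as Cd248). All mice were wounded on the back and received an expansion device on day 6. In both traction groups the device was then opened 1 mm each day until it had lengthened by 8 mm, and in both sham groups it stayed closed. Each library holds the RNA of a piece of whole scar, with epidermis, hair follicles and dermis together, so that fewer keratinocytes and less RNA per keratinocyte cannot be told apart.

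The cornified envelope is the protein shell that replaces the membrane of a keratinocyte as it dies at the skin surface. Transglutaminases link loricrin, involucrin, small proline-rich (SPRR) proteins and late cornified envelope (LCE) proteins into it, with the SPRR proteins acting as flexible bridges and the LCE proteins being added late. In normal skin LCE1 genes are used by the uppermost living layers, whereas LCE3 genes and several SPRR genes are known for being switched on when the barrier is damaged or inflamed. The genes lie together in the epidermal differentiation complex, beside those of loricrin, involucrin, filaggrin and the S100 proteins.

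All 37 genes matched the RefSeq annotation of GRCm38.p6, and all lie on chromosome 3 between 92215835 and 93019061, a span of 803.227 kb. The order along the chromosome is Sprr2a1 to Sprr2k, Sprr1b, Sprr3, Sprr1a, Sprr4, Lce6a, then the Lce1 genes other than Lce1m, the 6 Lce3 genes and, at the far end, Lce1m. RefSeq lists Sprr2g and Sprr2j-ps as transcribed pseudogenes and the others as protein-coding. Several members are near copies of each other, which bears on how reads can be assigned to them. In coding sequences built from the GENCODE annotation, Sprr2a1 and Sprr2a2 are identical over 252 bases and differ from Sprr2a3 at 3 positions. The 6 Lce3 genes share a median of 97.6% of their coding bases (15 pairs), Sprr2e and Sprr2i share 97.0%, and Lce1c and Lce1f share 95.7%. Among the 14 Lce1 genes the median is 83.6% (91 pairs, 44.3% to 95.7%), and between the Sprr2a genes and the other Sprr2 genes it is 65.8% (24 pairs, 56.6% to 75.6%). How reads that align to several places were counted is not given in the sources used here, so the split of counts within Sprr2a and within Lce3 is uncertain, and both are also given as sums. If such reads were left out, they are missing from the sums too. Levels of Sprr2a and Lce3 against those of other branches are therefore uncertain as well. The coding sequences of Sprr2a1 and Sprr2a3 are shown for this reason, with the bases that differ between them in capitals.
Sprr2a1: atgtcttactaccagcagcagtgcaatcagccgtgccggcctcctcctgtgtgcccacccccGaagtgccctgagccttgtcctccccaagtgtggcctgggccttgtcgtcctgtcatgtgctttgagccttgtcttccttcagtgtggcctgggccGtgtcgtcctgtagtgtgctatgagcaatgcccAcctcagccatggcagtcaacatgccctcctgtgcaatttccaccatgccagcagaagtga
Sprr2a3: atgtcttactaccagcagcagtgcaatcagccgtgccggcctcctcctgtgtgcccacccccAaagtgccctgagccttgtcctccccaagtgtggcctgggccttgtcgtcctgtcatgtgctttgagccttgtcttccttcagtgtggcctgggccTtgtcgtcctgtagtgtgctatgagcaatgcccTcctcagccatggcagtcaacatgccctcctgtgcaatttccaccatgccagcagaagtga

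The Sprr2 genes other than Sprr2a1, Sprr2a2 and Sprr2a3 are here called Sprr2b to Sprr2k, and the 7 of these 9 genes whose promoters were searched share AP-1 and octamer letters that the Sprr2a and Lce promoters searched here lack. The promoters of Sprr2g and Sprr2j-ps were not searched. The annotated transcripts of the Sprr2a genes are longer, at 2867 to 3003 bases, than those of these 7 genes, at 609 to 784 bases. The windows before their annotated starts may thus not match in position. Bases nearer the Sprr2a coding parts were not searched. Of the 37 genes, 34 were found in a RefSeq table of promoters (GRCm38.p6), and the 250 bases before each start were searched on both strands for 5 motifs. TGANTCA, the letters bound by AP-1 factors, was found in 6.87% of 27025 mouse promoters of this length. It was found in 9 of 14 Sprr promoters (Sprr1a, Sprr1b and the 7 of Sprr2b to Sprr2k in the table) and in 0 of 20 Lce promoters. The octamer ATGCAAAT, the letters bound by POU factors, was found in 1.61% of all promoters, in the same 7 Sprr2 promoters, in 0 of 3 Sprr2a promoters and in 0 of 20 Lce promoters. TATAAA was found in 13% of all promoters, in 10 of 14 Sprr promoters and in 4 of 20 Lce promoters (Lce6a, Lce1d, Lce1m and Lce3e). CACCC was found in 51.3% of all promoters, in 5 Sprr and 7 Lce promoters, and in Sprr1a 1 match overlaps an AP-1 match. GGAAGT, the core of many ETS sites, was found in 19.99% of all promoters, in 3 Sprr and 5 Lce promoters. AP-1 and octamer letters occurred together in 46 of 27025 promoters (0.170%), and with TATAAA in 13 (0.0481%), 7 of which are these Sprr2 promoters. A match of letters is a description of the sequence and not a binding site.

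In the 7 promoters the octamer began 108 to 112 bases before the start, an AP-1 match 193 to 198 bases before it, and TATAAA 29 bases before it in each. Sprr2k held a second AP-1 match, 182 bases before its start. The 40 bases around the octamer are shown because these 7 promoters hold its letters and the Sprr2a and Lce windows searched here do not. The octamer, read here from the other strand as ATTTGCAT, is in capitals.
Sprr2b: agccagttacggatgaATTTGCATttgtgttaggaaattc
Sprr2d: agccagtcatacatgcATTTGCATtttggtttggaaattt
Sprr2e: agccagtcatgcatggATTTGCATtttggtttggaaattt
Sprr2f: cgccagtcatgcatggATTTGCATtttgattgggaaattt
Sprr2h: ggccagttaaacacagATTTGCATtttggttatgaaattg
Sprr2i: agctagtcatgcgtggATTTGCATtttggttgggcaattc
Sprr2k: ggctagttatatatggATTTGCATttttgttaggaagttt

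Whole promoters are shown for members that the results turn on, namely Sprr2a1, Sprr1a, Lce1a1 and Lce3c, each the most abundant of its kind, and Sprr2d, the most abundant of Sprr2b to Sprr2k, which was chosen after values were seen. AP-1, octamer and TATAAA letters are in capitals, and a promoter without capitals holds none of them. The Sprr2d promoter lies on the plus strand at chr3:92338890-92339139 and that of Sprr2a1 on the plus strand at chr3:92215585-92215834. The Sprr1a promoter lies on the minus strand at chr3:92485882-92486131, that of Lce1a1 on the minus strand at chr3:92648308-92648557 and that of Lce3c on the plus strand at chr3:92944236-92944485. The Sprr1a promoter holds the AP-1 letters at 146 and at 116 bases before the start and TATAAA at 43 bases before it.
Sprr2d: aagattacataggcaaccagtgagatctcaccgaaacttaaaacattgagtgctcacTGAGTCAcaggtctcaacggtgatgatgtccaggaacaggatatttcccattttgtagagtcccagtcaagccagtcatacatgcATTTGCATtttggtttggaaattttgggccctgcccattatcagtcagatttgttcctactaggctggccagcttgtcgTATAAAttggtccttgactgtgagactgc
Sprr2a1: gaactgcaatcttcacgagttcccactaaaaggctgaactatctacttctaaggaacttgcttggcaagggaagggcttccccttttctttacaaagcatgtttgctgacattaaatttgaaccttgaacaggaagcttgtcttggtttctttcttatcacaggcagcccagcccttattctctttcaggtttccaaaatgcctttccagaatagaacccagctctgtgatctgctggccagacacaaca
Sprr1a: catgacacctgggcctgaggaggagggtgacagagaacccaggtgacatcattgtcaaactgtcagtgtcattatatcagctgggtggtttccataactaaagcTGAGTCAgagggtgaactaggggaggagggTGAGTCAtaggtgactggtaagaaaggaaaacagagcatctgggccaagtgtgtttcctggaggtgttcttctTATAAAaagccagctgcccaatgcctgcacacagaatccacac
Lce1a1: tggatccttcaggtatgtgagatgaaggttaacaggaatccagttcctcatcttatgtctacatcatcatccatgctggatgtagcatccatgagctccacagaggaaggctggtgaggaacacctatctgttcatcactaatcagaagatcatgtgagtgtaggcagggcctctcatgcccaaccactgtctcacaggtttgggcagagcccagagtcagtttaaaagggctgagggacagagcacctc
Lce3c: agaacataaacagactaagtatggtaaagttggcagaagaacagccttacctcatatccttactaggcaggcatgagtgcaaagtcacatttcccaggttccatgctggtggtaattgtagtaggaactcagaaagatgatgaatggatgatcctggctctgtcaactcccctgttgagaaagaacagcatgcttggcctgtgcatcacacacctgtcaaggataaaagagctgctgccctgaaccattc

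Library totals were between 41536788 and 64644293 counts, and the 37 genes took 0.115% to 0.417% of them. Cd248 followed the labels, with 92.4 to 337 CPM in Tem1WT/WT mice and 0 to 0.248 CPM in Tem1lacZ/lacZ mice. Levels are given as CPM, the count relative to the total of the library after TMM scaling, in the order of replicates 1, 2 and 3, which are different mice in each group. A gene with 0 counts may still have had up to 3, which is 0.0435 to 0.0739 CPM depending on the library, for counting error only. Replicate 1 of the Tem1WT/WT traction group stood apart from the other 11 libraries for many of the genes described here. It was the lowest of the 12 libraries for 14 of 14 Lce1 genes and for Lce6a, and the highest for 8 of 9 genes of Sprr2b to Sprr2k. In the same library 15 of 15 neutrophil marker genes were the highest of the 12, with a summed level of 9152 CPM against 145 to 933 CPM elsewhere. Likewise 10 of 11 suprabasal keratinocyte genes were the lowest, with 3018 CPM against 8631 to 17821 CPM. The part of these cell markers in the results was not tested, and the main values that rest on this library are followed by those without it.

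The genes fell into 4 large groups, whose summed CPM show how unlike the branches of each family were. The Lce1 genes summed to 667, 456 and 971 CPM in the Tem1WT/WT sham group and to 102, 515 and 563 CPM with traction. In Tem1lacZ/lacZ mice they summed to 911, 1759 and 1069 CPM in the sham group and to 1783, 550.0 and 1119 CPM with traction. The sham and traction libraries overlapped in both genotypes, and the library at 102 CPM lay far below all others. The Lce3 genes were lower by far, at 1.37, 6.82 and 16.7 CPM in the Tem1WT/WT sham group and 46.8, 18.5 and 40.0 CPM with traction, so that each traction library lay above each sham library. In Tem1lacZ/lacZ mice the Lce3 sums were 8.38, 21.3 and 17.0 CPM in the sham group and 38.3, 16 and 12.4 CPM with traction, and they overlapped.
The 3 Sprr2a genes summed to 119, 172 and 543 CPM in Tem1WT/WT sham scars and to 271, 292 and 259.8 CPM with traction. The Tem1lacZ/lacZ sums were 1026, 902 and 675 CPM and, with traction, 1064, 347 and 448 CPM. The Tem1lacZ/lacZ sums were above the Tem1WT/WT sums without overlap, both in sham and in traction scars. Sprr2b to Sprr2k summed to 7.51, 26.5 and 24.9 CPM in the Tem1WT/WT sham group and to 929.8, 37.5 and 59.8 CPM with traction. In Tem1lacZ/lacZ mice they summed to 39.8, 32.2 and 17.5 CPM in the sham group and to 52.3, 63.2 and 12 CPM with traction. The library at 929.8 CPM was far above the other 11, and the remaining Tem1WT/WT traction libraries still lay above the 3 sham libraries of that genotype.

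**Figure D1:**
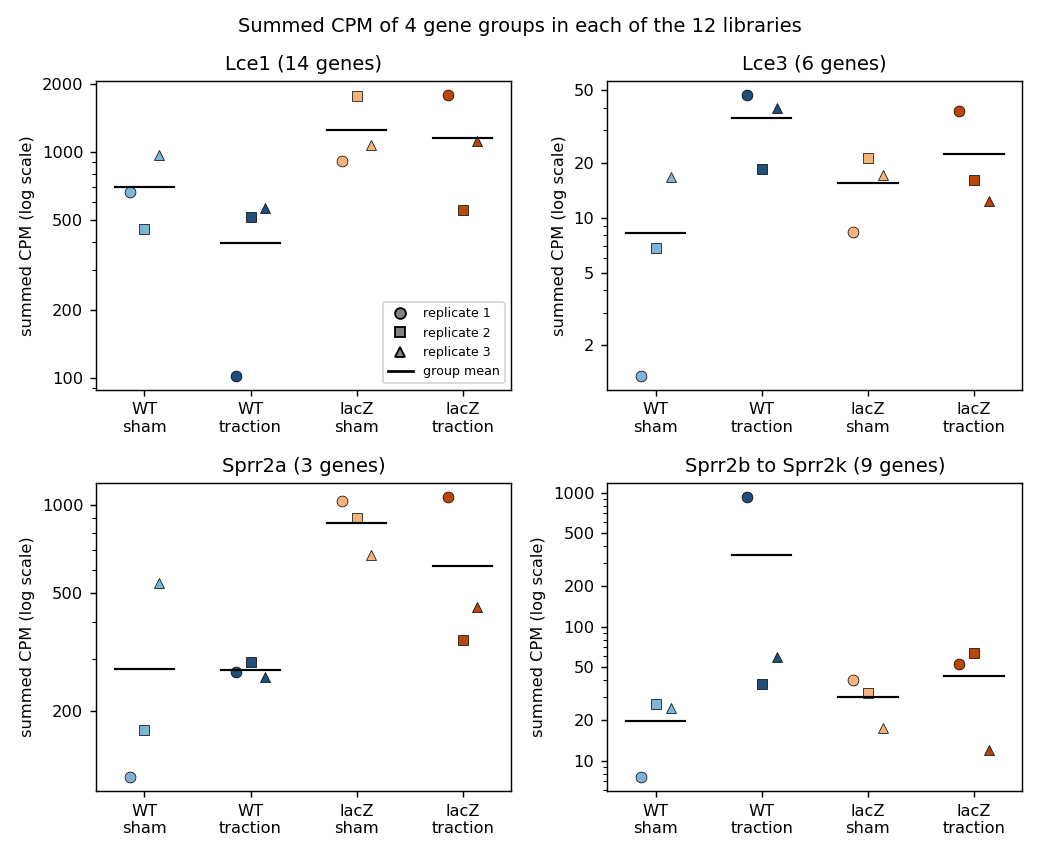
Summed CPM (log scale) of the Lce1, Lce3, Sprr2a and Sprr2b to Sprr2k genes in each of the 12 libraries, with 3 mice per group marked by replicate number and a line at the group mean (WT, Tem1WT/WT; lacZ, Tem1lacZ/lacZ). Replicate 1 of the WT traction group is lowest for Lce1, at 102 CPM, and highest for Sprr2b to Sprr2k, at 929.8 CPM.

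Levels of different genes were compared per kb of annotated transcript, on the mean CPM of the 12 libraries. Sprr1a was the highest at 676 CPM per kb, followed by Sprr4 at 573, Lce1a1 at 179 and Lce1d at 142. The Sprr4 model holds only its coding part, 231 bases, so its level per kb is uncertain. Sprr2a1 had 126 CPM per kb, Sprr1b 93.4 and Lce3c 11. The Sprr2a1 model holds 3003 bases, of which 252 are coding, against 609 to 784 bases for Sprr2b to Sprr2k. Its level per kb, and so its rank, is uncertain as well. Sprr3, which encodes a protein best known from the lining of the mouth and oesophagus, had 0 to 0.575 CPM and was not tested.

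Traction against sham in Tem1WT/WT mice asks what stretching did to the scar of a mouse with Tem1. The branches of both families lay on opposite sides of 0. Lce3 genes and Sprr2b to Sprr2k had values above 0 on the log2 scale, and Lce1 genes, Lce6a, Sprr1a and Sprr4 had values below 0. The Sprr2a genes were near 0, but with single libraries left out their median was −0.41 to 0.92. Of the 36 members tested 4 passed the threshold (edgeR quasi-likelihood test, p under 0.05 after Benjamini-Hochberg adjustment across all genes tested), all of them Sprr2 genes that rose, namely Sprr2f, Sprr2h, Sprr2i and Sprr2j-ps. Over all genes tested 5.61% passed as higher and 3.54% as lower. An unadjusted p under 0.05 was reached by 16 members, 13 of them with higher levels, where 31.4% of all genes reached it. The libraries did not overlap for 11 members that were higher, where the share over all genes was 17.7%, and for 4 that were lower, where it was 18%.
The median log2 fold change was −0.61 over 21 Lce genes and 3.42 over 15 Sprr genes, against −0.01 over all genes tested. Without replicate 1 of the traction group these medians were −0.18 and 1.09, and without replicate 3 of the sham group the Lce median was 0.08. With all libraries it was −0.68 for Lce1 (14 of 14 below 0), 2.06 for Lce3 (6 of 6 above 0), −0.04 for Sprr2a and 4.25 for Sprr2b to Sprr2k (9 of 9 above 0). Genes of a branch were read in the same mice and several are near copies, so such counts are not independent results. Without replicate 1 of the traction group the median of Sprr2b to Sprr2k was 1.2, with 8 of 9 above 0. The cut between Sprr2a and the other Sprr2 genes was made after values were seen. With the size factors of DESeq2 and with upper quartile normalization, which moved the median of all genes to −0.12, all Lce1, Lce3 and Sprr2b to Sprr2k genes kept these directions, and Sprr2a3 turned from 0.07 to below 0 with the latter.

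**Figure D2:**
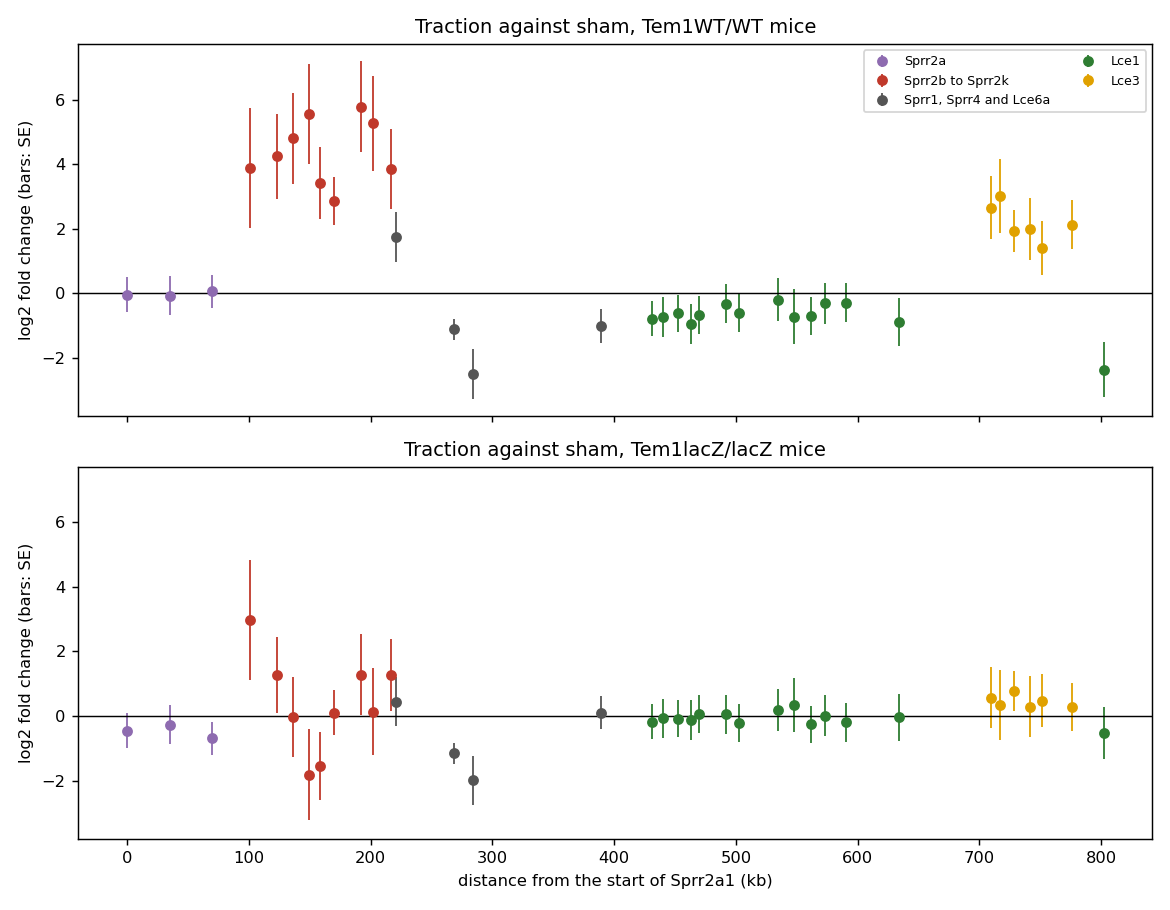
Log2 fold change of traction against sham for the 36 genes tested, plotted by distance from the start of Sprr2a1 (kb), in Tem1WT/WT mice (upper panel) and Tem1lacZ/lacZ mice (lower panel), 3 mice per group, with bars for the standard error. In Tem1WT/WT mice Sprr2b to Sprr2k and the Lce3 genes lie above 0, with medians of 4.25 and 2.06, and the Lce1 genes lie below it, with a median of −0.68.

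The genes that rose were at low levels in sham scars. Sprr2i (chromosome 3, 92407991 to 92409271) was at 0.239, 0.450 and 1.28 CPM in the Tem1WT/WT sham group and at 102, 3.80 and 3.39 CPM with traction. The groups did not overlap, but the library at 102 CPM stood far above the others. The log2 fold change was 5.78 (SE 1.41, adjusted p = 0.0372 in edgeR's quasi-likelihood test), and 2.42 (adjusted p = 0.0842) without replicate 1 of the traction group. Sprr2i shares 97.0% of its coding bases with Sprr2e, and their summed counts were called as well.
Sprr2f (92365187 to 92366442) was at 0.391, 0.522 and 1.05 CPM and at 89.4, 1.06 and 1.83 CPM with traction. The groups were apart by a small margin, since the highest sham and the lowest traction library were nearly level. The log2 fold change was 5.54 (SE 1.54, edgeR adjusted p = 0.0489) and, without replicate 1, 1.11 (adjusted p = 0.320).
Sprr2h (92385685 to 92387324) was at 2.95, 5.05 and 5.26 CPM and at 75.8, 8.37 and 12.3 CPM with traction, with no overlap. Its log2 fold change of 2.86 (SE 0.74, edgeR adjusted p = 0.0416) was 1.2 (adjusted p = 0.0923) without replicate 1.
Sprr2j-ps (92418087 to 92419396), a transcribed pseudogene, was at 0.174, 0.145 and 0.262 CPM and at 21.0, 0.618 and 1.09 CPM with traction, again without overlap. Its log2 fold change was 5.27 (SE 1.47, edgeR adjusted p = 0.0491) and, without replicate 1, 2.11 (adjusted p = 0.2). The calls of these 4 genes were thus lost without that library, while each log2 fold change stayed above 0. The 4 calls were also lost without any 1 of the 3 Tem1WT/WT sham libraries, without replicate 2 or 3 of the Tem1lacZ/lacZ sham group and without replicate 2 of the Tem1lacZ/lacZ traction group. DESeq2's Wald test called Sprr2h and Sprr2j-ps but not Sprr2f and Sprr2i, and it called Sprr2d and Sprr2k as higher and Sprr1a and Sprr4 as lower, where it called 4047 of 18853 genes in all. Upper quartile normalization in edgeR called Sprr2h and Sprr2i as higher and Sprr1a as lower.

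Among the genes of Sprr2b to Sprr2k that were not called, Sprr2d (92339140 to 92340873) had the highest level. It was at 1.52, 12.4 and 8.39 CPM in the Tem1WT/WT sham group and at 384, 13.5 and 28.6 CPM with traction. Its groups did not overlap, and its log2 fold change was 4.25 (SE 1.31, edgeR adjusted p = 0.0619) with all libraries and 1.47 (adjusted p = 0.303) without replicate 1. Sprr2b was at 0.217, 4.58 and 0.360 CPM and at 75.4, 1.02 and 0.719 CPM with traction, so that its groups overlapped and its log2 fold change turned from 3.88 to −1.02 without replicate 1. Sprr2k, at 0, 0.116 and 0.295 CPM and at 3.12, 0.795 and 2.32 CPM with traction, differed from the rest in that no single library carried it. On the log2 scale the fold change was 3.85 (SE 1.25, edgeR adjusted p = 0.0703) and 3.41 (adjusted p = 0.128) without replicate 1.
The 3 Sprr2a genes had log2 fold changes of −0.07 to 0.07 with all libraries. With single libraries left out their median was −0.41 to 0.92. Sprr2a1 (92215835 to 92222491) was at 83.3, 130.5 and 407 CPM in the sham group and at 194, 220.0 and 191 CPM with traction, so that the sham libraries spread far more widely than the traction libraries. Sprr2a3 was at 30.1, 31.5 and 101 CPM and at 63.0, 56.0 and 51.2 CPM with traction, with the same arrangement.

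**Figure D3:**
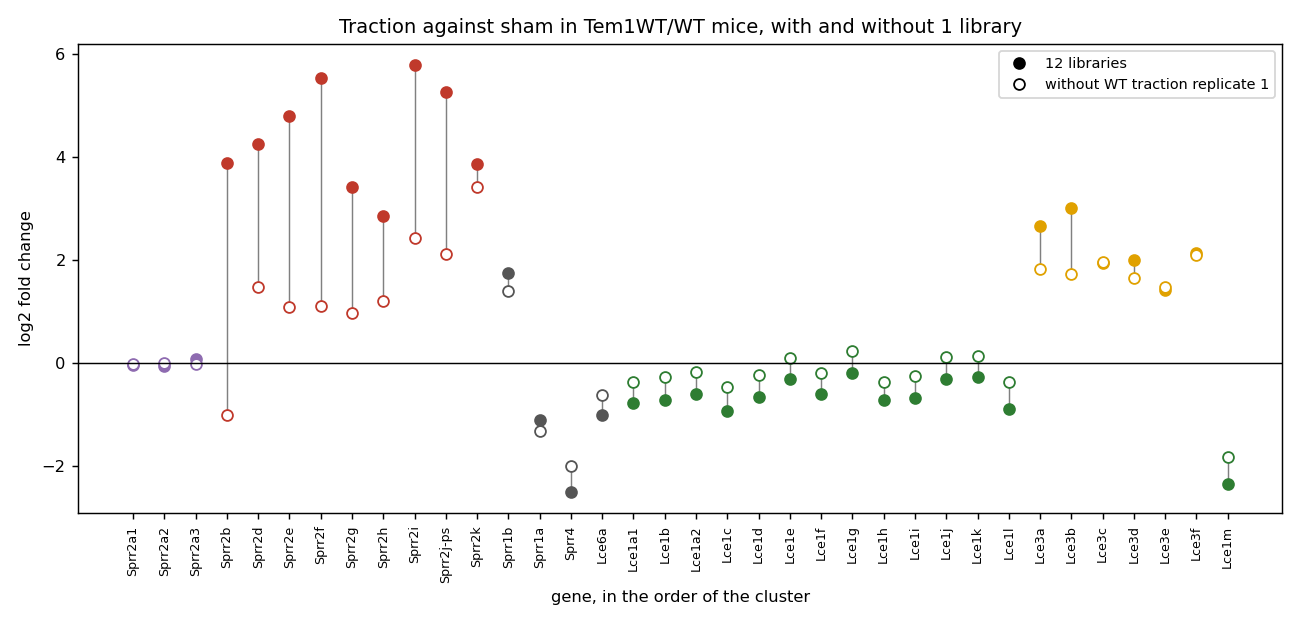
Log2 fold change of traction against sham in Tem1WT/WT mice for the 36 genes tested, in the order of the cluster, from all 12 libraries (filled) and without replicate 1 of the WT traction group (open). The gap is wide for most of Sprr2b to Sprr2k, for example 5.54 against 1.11 for Sprr2f, and narrow for Lce3c (1.94 against 1.96) and Sprr1a (−1.11 against −1.33).

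Of the Sprr genes outside the Sprr2 block, Sprr1a and Sprr4 had values below 0 and Sprr1b had a value above 0. Sprr1a (92483954 to 92485881), an envelope precursor and the most abundant of the 37 genes, was at 820.0, 575 and 536 CPM in the Tem1WT/WT sham group and at 381, 300.4 and 215 CPM with traction. All traction libraries lay below all sham libraries. The log2 fold change was −1.11 (SE 0.33, edgeR adjusted p = 0.0556) and, without replicate 1, −1.33 (adjusted p = 0.0621), so that its value did not rest on that library. Sprr1a missed the threshold narrowly there, and was called as lower with DESeq2, with upper quartile normalization and without replicate 1 of the Tem1lacZ/lacZ traction group.
Sprr4 (92500263 to 92500493), the lone gene of its subfamily, was at 199.6, 65.8 and 109 CPM in the sham group and at 3.50, 48.0 and 14.7 CPM with traction, without overlap. The fitted log2 fold change was −2.50 (SE 0.78, edgeR adjusted p = 0.0630) and −2.00 (adjusted p = 0.0843) without replicate 1.
Sprr1b (92436808 to 92438817), the near relative of Sprr1a with 78.8% of its coding bases, was at 12.1, 18.2 and 75.5 CPM in the sham group and at 168, 70.5 and 117 CPM with traction, where 1 sham library overlapped. Its log2 fold change was 1.75 (SE 0.78, edgeR adjusted p = 0.153), and 1.39 without replicate 1 of the traction group.

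The Lce1 genes, which encode LCE proteins of the late envelope, were below 0 as a group, but none passed the threshold (edgeR, 0 of 14 called, with an unadjusted p under 0.05 for Lce1m alone). Lce1a1 (92646532 to 92648307), the most abundant, was at 83.3, 74.6 and 148 CPM in the Tem1WT/WT sham group and at 18.0, 73.8 and 86.0 CPM with traction. Lce1c (92679247 to 92680918) was at 72.7, 58.0 and 113 CPM and at 8.64, 59.6 and 59.0 CPM. In both the low value of replicate 1 stood alone, and the other traction libraries lay among or beside the sham libraries. Lce1d was at 54.2, 47.0 and 106 CPM and at 12.1, 57.9 and 60.7 CPM with traction. Lce1f was at 39.1, 48.6 and 114 CPM and at 13.3, 62.0 and 56.9 CPM, and Lce1b at 57.1, 50.6 and 106 CPM and at 10.3, 62.2 and 56.9 CPM. These 3 genes repeated that arrangement. The log2 fold changes of the 5 genes were −0.93 to −0.61, with edgeR adjusted p from 0.323 to 0.517. Without replicate 1 of the traction group the median of the 14 Lce1 genes was −0.25, with 4 above 0 and 10 below, and without replicate 3 of the sham group it was −0.26, with 6 above 0 and 8 below.
Lce1m (93017807 to 93019061), which lies apart from the other Lce1 genes beyond the Lce3 genes, was at 204, 40.4 and 89.0 CPM and at 2.00, 33.7 and 29.1 CPM with traction. Its groups did not overlap, while those of the other Lce1 genes did. The log2 fold change was −2.36 (SE 0.84, edgeR adjusted p = 0.0884) and −1.84 (adjusted p = 0.0944) without replicate 1.
Lce6a (92604821 to 92621660), the single member of its subfamily, was at 15.3, 16.7 and 21.1 CPM and at 3.00, 12.2 and 11.1 CPM with traction, without overlap. On the log2 scale the fold change was −1.01 (SE 0.51, edgeR adjusted p = 0.203), and −0.62 (adjusted p = 0.354) without replicate 1.

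The Lce3 genes, known from injured and psoriatic skin, lay on the other side of 0 from Lce1. Lce3c (92944486 to 92945730) was at 0.847, 2.05 and 4.55 CPM in the Tem1WT/WT sham group and at 8.90, 6.09 and 13.6 CPM with traction, so that every traction library lay above every sham library. The log2 fold change was 1.94 (SE 0.64, edgeR adjusted p = 0.0745) and 1.96 (adjusted p = 0.112) without replicate 1. Lce3a, Lce3b and Lce3f were also without overlap, and Lce3d and Lce3e overlapped. The log2 fold changes of the 6 genes were 1.41 to 3.01, and without replicate 1 their median was 1.77 with 6 of 6 above 0. None of the 6 passed the threshold in edgeR (0 of 6 called, with an unadjusted p under 0.05 for Lce3a, Lce3b, Lce3c and Lce3f), whereas DESeq2's Wald test called these 4 genes, and among Lce1 it called Lce1m.

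Traction against sham in Tem1lacZ/lacZ mice asks the same of scars without Tem1. With all libraries the medians of the branches that parted in Tem1WT/WT mice were nearer to 0 here, and Sprr1a and Sprr4 again had lower values. No member was called (0 of 36 in edgeR and with DESeq2, and Sprr1a alone with limma-voom, which called 435 of 18853 genes), and 0% of all genes were called in edgeR. Sprr1a and Sprr4 had an unadjusted p under 0.05, where 8.12% of all genes did. The libraries did not overlap for 3 members that were lower (Sprr2g, Sprr1a and Sprr4), where the share over all genes was 6.16%, and for 0 that were higher, where it was 6.77%. The median log2 fold change was 0.05 over the Lce genes (−0.47 to 0.40 with single libraries left out) and −0.03 over the Sprr genes (−0.97 to 0.41). It was −0.08 for Lce1, 0.40 for Lce3 (6 of 6 above 0, 0.28 to 0.78), −0.45 for Sprr2a and 0.14 for Sprr2b to Sprr2k. With single libraries left out it was −0.52 to 0.27 for Lce1, 0.01 to 0.79 for Lce3, −1.04 to −0.16 for Sprr2a and −0.15 to 0.73 for Sprr2b to Sprr2k. The Lce1 value of −0.52 was without replicate 1 of the traction group and that of 0.27 without replicate 2 of the sham group.
Sprr1a was at 956, 955 and 649 CPM in the sham group and at 575, 303 and 269 CPM with traction, without overlap. The difference was −1.16 on the log2 scale (SE 0.33, edgeR adjusted p = 0.598). The interaction between genotype and traction for Sprr1a was −0.05 (95% confidence interval −1.11 to 1.00), which leaves room for a difference between the genotypes of about the size of the traction response itself.
Sprr4 was at 354, 340.3 and 223 CPM and at 119, 42 and 70.6 CPM with traction, with no overlap. The fitted log2 fold change was −1.98 (SE 0.76, edgeR adjusted p = 0.598), and the interaction was 0.52 (95% confidence interval −1.88 to 2.91).
The 4 genes called in Tem1WT/WT mice overlapped between the Tem1lacZ/lacZ groups. Sprr2i was at 0.333, 1.02 and 0.525 CPM in the sham group and at 2.34, 1.83 and 0.415 CPM with traction, and Sprr2h was at 10.6, 8.57 and 5.37 CPM and at 12.1, 8.96 and 5.30 CPM. Sprr2f was at 3.24, 1.71 and 0.565 CPM and at 0.493, 0.801 and 0.264 CPM with traction, the opposite order from Tem1WT/WT mice. Sprr2j-ps was at 0.476, 0.380 and 0.262 CPM and at 0.789, 0.458 and 0 CPM with traction. Their log2 fold changes were 1.28 for Sprr2i, 0.11 for Sprr2h, −1.81 for Sprr2f and 0.14 for Sprr2j-ps. Sprr2d was at 13.1, 8.80 and 3.63 CPM and at 24.0, 32.5 and 4.34 CPM with traction, also with overlap.
Lce3c was at 2.36, 6.29 and 5.63 CPM and at 14.3, 4.56 and 5.69 CPM with traction, and Sprr1b was at 47.2, 63.3 and 88.3 CPM and at 194, 33.7 and 42.9 CPM. In both genes replicate 1 of the traction group was the highest library, and the others lay among or below the sham libraries. That library also stood apart for keratins. Krt5 and Krt14 summed to 30100 CPM there, against 6207 and 7192 CPM in replicates 2 and 3. The 4 stress keratins summed to 26439 CPM, against 4183 and 4824 CPM. The part of these keratins in the values was not tested.
Lce1a1 was at 137, 258 and 153 CPM and at 240.1, 85.8 and 156 CPM with traction. Lce1m was at 97.2, 169 and 110.2 CPM and at 119.7, 47.5 and 93.7 CPM, and Lce6a at 18.3, 37.2 and 19.8 CPM and at 42.6, 14.4 and 24.2 CPM. All 3 genes overlapped between the groups, with log2 fold changes of −0.18, −0.53 and 0.11.

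**Figure D4:**
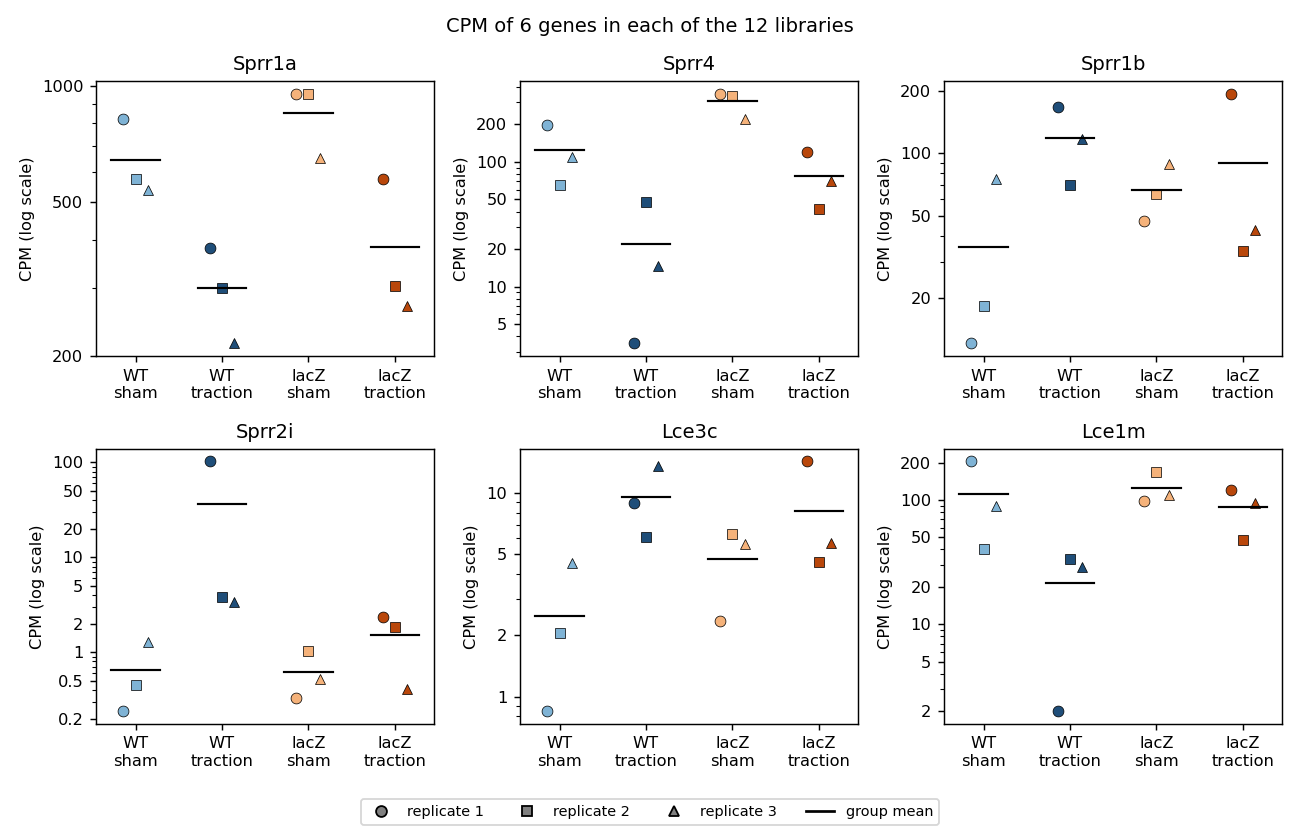
CPM (log scale) of Sprr1a, Sprr4, Sprr1b, Sprr2i, Lce3c and Lce1m in each of the 12 libraries, 3 mice per group marked by replicate number, with a line at the group mean (WT, Tem1WT/WT; lacZ, Tem1lacZ/lacZ). The traction libraries of Sprr1a and Sprr4 lie below the sham libraries in both genotypes, whereas Sprr2i and Lce3c are without overlap in the WT groups and overlap in the lacZ groups.

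Tem1lacZ/lacZ against Tem1WT/WT mice in the sham groups asks whether the envelope genes differed without traction. Most members had higher values in Tem1lacZ/lacZ mice. The medians on the log2 scale were 0.92 over the Lce genes and 0.93 over the Sprr genes, against −0.01 over all genes. With single libraries left out they were 0.62 to 1.42 over the Lce genes and 0.71 to 1.61 over the Sprr genes. All 21 Lce genes and 13 of 15 Sprr genes were above 0. No member was called (0 of 36 in edgeR, and 0 with DESeq2 and with limma-voom), where 0.0106% of all genes were called in edgeR. An unadjusted p under 0.05 was reached by 3 members, Sprr2a1, Sprr2a2 and Sprr2a3, where 11.7% of all genes reached it. The libraries did not overlap for 9 members that were higher, where the share over all genes was 13%, and for 0 that were lower, where it was 13.8%. The 9 were the 3 Sprr2a genes, Sprr2h, Sprr2j-ps, Sprr4, Lce1i, Lce1j and Lce1k.
Sprr2a1 was at 83.3, 130.5 and 407 CPM in Tem1WT/WT mice and at 748, 673 and 492 CPM in Tem1lacZ/lacZ mice, without overlap. Its log2 fold change was 1.62 (SE 0.56, edgeR adjusted p = 0.409). Sprr2a3 was at 30.1, 31.5 and 101 CPM and at 227, 181 and 115 CPM, with a log2 fold change of 1.69 (SE 0.52, edgeR adjusted p = 0.409). In both genes replicate 3 of the Tem1WT/WT group was close to replicate 3 of the Tem1lacZ/lacZ group, and the other libraries were far apart. Without that Tem1WT/WT library the median of the 3 Sprr2a genes was 2.58, and without replicate 1 of the group it was 1.30. For Sprr4 the log2 fold change was 1.29 (SE 0.74, edgeR adjusted p = 0.496), and for Sprr1a it was 0.41 (SE 0.32) with overlap.
Some keratin genes, but not the suprabasal keratinocyte genes, also had higher sums in the Tem1lacZ/lacZ sham group. The sum of Krt5 and Krt14 was 6013 to 9329 CPM in Tem1WT/WT and 10209 to 14611 CPM in Tem1lacZ/lacZ sham scars, and that of 4 stress keratins was 3157 to 8918 CPM and 11182 to 13708 CPM, both without overlap. The 11 suprabasal keratinocyte genes summed to 8740 to 10757 CPM and to 8631 to 11248 CPM, with overlap, and 0 of 11 had an unadjusted p under 0.05. Relative to Krt5 and Krt14 the mean Lce1 sum was 0.0969 in each of the 2 sham groups, whereas relative to Krt1 and Krt10 it was 0.183 in Tem1WT/WT and 0.316 in Tem1lacZ/lacZ mice. The part of these markers in the sham comparison was not tested.

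Tem1lacZ/lacZ against Tem1WT/WT mice with traction asks how the stretched scars differed. This comparison uses the same Tem1WT/WT traction libraries as the first one, so that their results are not independent. Lce1 genes, Lce6a and Sprr2a genes had higher values in Tem1lacZ/lacZ mice, and Sprr2b to Sprr2k had lower values. No member was called in edgeR (0 of 36) or limma-voom, where 0.106% of all genes were called in edgeR, whereas DESeq2, which called 2295 of 18853 genes here, called Lce6a, Lce1c and Lce1d as higher and Sprr2h and Sprr2j-ps as lower. An unadjusted p under 0.05 was reached by 22 members, 14 higher and 8 lower, where 26.1% of all genes reached it. The libraries did not overlap for 7 members that were higher (the 3 Sprr2a genes, Lce6a, Lce1c, Lce1d and Lce1m), where the share over all genes was 12.9%, and for 3 that were lower (Sprr2f, Sprr2g and Sprr2i), where it was 13.7%.
The median log2 fold change was 1.44 over the Lce genes and −1.87 over the Sprr genes. It was 1.5 for Lce1 (14 of 14 above 0), −0.72 for Lce3, 1.21 for Sprr2a and −3.85 for Sprr2b to Sprr2k (9 of 9 below 0). Without replicate 1 of the Tem1WT/WT traction group the Sprr median was −0.12, and the median was 1.06 for Lce1 (14 of 14 above 0), −0.53 for Lce3 and −0.36 for Sprr2b to Sprr2k (8 of 9 below 0). With any single library left out the median was 0.93 to 1.80 over the Lce genes, −1.48 to −0.34 for Lce3 and 0.62 to 1.51 for Sprr2a.
Lce6a was at 3.00, 12.2 and 11.1 CPM in Tem1WT/WT mice and at 42.6, 14.4 and 24.2 CPM in Tem1lacZ/lacZ mice, without overlap. On the log2 scale the fold change was 1.62 (SE 0.52, edgeR adjusted p = 0.107), and 1.24 without replicate 1.
Lce1c was at 8.64, 59.6 and 59.0 CPM and at 207, 68.7 and 137 CPM, with a log2 fold change of 1.70 (SE 0.63, edgeR adjusted p = 0.135). Lce1d was at 12.1, 57.9 and 60.7 CPM and at 219, 64.8 and 134 CPM, with a log2 fold change of 1.68 (SE 0.60, edgeR adjusted p = 0.128). In these 3 genes the lowest Tem1lacZ/lacZ library, replicate 2, lay just above the highest Tem1WT/WT library.
Sprr2f was at 89.4, 1.06 and 1.83 CPM and at 0.493, 0.801 and 0.264 CPM, without overlap. The fitted log2 fold change was −5.88 (SE 1.58, edgeR adjusted p = 0.0951), and −1.44 without replicate 1. Sprr2i was at 102, 3.80 and 3.39 CPM and at 2.34, 1.83 and 0.415 CPM, again without overlap. Its log2 fold change of −4.58 (SE 1.33, edgeR adjusted p = 0.0963) was −1.21 without replicate 1.
Cell markers were read in the same comparison. At an unadjusted p under 0.05, 9 of 13 neutrophil markers and 6 of 10 fibroblast markers were lower in Tem1lacZ/lacZ mice, and 13 of 21 hair genes, 11 of 21 other envelope precursors and 4 of 11 suprabasal keratinocyte genes were higher, while edgeR called 0 of each list. The suprabasal genes summed to 3018, 9347 and 11402 CPM in Tem1WT/WT and to 17821, 11016 and 14668 CPM in Tem1lacZ/lacZ traction scars, which overlapped. Krt5 and Krt14 summed to 16273, 7335 and 11322 CPM and to 30100, 6207 and 7192 CPM in the same groups, also with overlap. The part of these markers in the difference between the genotypes was not tested.

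The interaction between genotype and traction tests whether a gene responded to traction by a different amount in the Tem1WT/WT and Tem1lacZ/lacZ mice. No member was called (0 of 36 in edgeR, and 0 with DESeq2 and with limma-voom), and 0% of all genes were called in edgeR. An unadjusted p under 0.05 was reached by 6 members (Sprr2e, Sprr2f, Sprr2g, Sprr2h, Sprr2i and Sprr2j-ps), all below 0, where 8.91% of all genes reached it. The median interaction on the log2 scale was 0.39 over the Lce genes and −2.59 over the Sprr genes, and −4.50 for Sprr2b to Sprr2k. Without replicate 1 of the Tem1WT/WT traction group the median was −0.997 over the Sprr genes and −1.12 for Sprr2b to Sprr2k, with 8 of 9 below 0. The Lce median was 0.01 without that library, −0.08 without replicate 3 of the Tem1WT/WT sham group and −0.04 without replicate 1 of the Tem1lacZ/lacZ traction group, so that its direction was not settled. A difference in traction response between the genotypes was therefore not shown for any single Lce or Sprr gene.

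The branches were then set side by side across all 12 libraries. Pearson correlations of log2 CPM between genes are given as a description, since the libraries share groups and 1 of them stands apart. Pairs of Lce1 genes had a median correlation of 0.96, pairs of Lce3 genes 0.83, pairs of Sprr2a genes 0.97 and pairs within Sprr2b to Sprr2k 0.87 (0.37 to 0.98). Across branches the median was −0.07 for Lce1 with Lce3 and −0.02 for Sprr2a with Sprr2b to Sprr2k, while the range over pairs was −0.84 to 0.54 and −0.19 to 0.27. Between the sums of these branches the correlation was −0.13 for Lce1 with Lce3 and 0.03 for Sprr2a with Sprr2b to Sprr2k, and 0.33 and 0.36 without replicate 1 of the Tem1WT/WT traction group. Lce3 with Sprr2b to Sprr2k had a median of 0.65. Summed Lce3 and Sprr1b had a correlation of 0.92, and of 0.91 over the 11 libraries without that one. Sprr1a and Sprr4 had 0.75, and 0.93 without that library. Summed Lce1 and Sprr2b to Sprr2k had −0.70, and −0.07 without it.
Lce1 genes made up 67.2% of the summed Lce level in that library and 91.7% to 97.6% in the other 11. Sprr2b to Sprr2k made up 53.0% of the summed Sprr level there and 0.649% to 8.97% elsewhere. The ratio of summed Lce to summed Sprr CPM was 0.0866 there and 0.387 to 1.37 elsewhere.
The sum of Lce1 relative to that of the suprabasal keratins Krt1 and Krt10 was examined after values were seen, and has no test. This ratio was 0.255, 0.109 and 0.184 in the Tem1WT/WT sham group and 0.107, 0.0983 and 0.0687 with traction. It was 0.210, 0.422 and 0.317 in the Tem1lacZ/lacZ sham group and 0.185, 0.0801 and 0.119 with traction. In both genotypes each traction library lay below each sham library, by a small margin, and replicate 1 of the Tem1WT/WT traction group was the highest of its group. In Tem1lacZ/lacZ mice Krt1 and Krt10 summed to 3371 to 4339 CPM in sham and 6868 to 9644 CPM with traction, without overlap. The Lce1 sums of these groups overlapped, so the lower ratio there came with a higher keratin sum. Sums of the 11 suprabasal keratinocyte genes overlapped there, at 8631 to 11248 CPM and 11016 to 17821 CPM. In Tem1WT/WT mice the Lce1 sums and the Krt1 and Krt10 sums each overlapped. Relative to the basal keratins Krt5 and Krt14 the picture was different. That ratio was 0.111, 0.0758 and 0.104 in the Tem1WT/WT sham group and 0.00627, 0.0703 and 0.0498 with traction, without overlap and with replicate 1 by far the lowest. In Tem1lacZ/lacZ mice it was 0.0892, 0.128 and 0.0731 in the sham group and 0.0592, 0.0886 and 0.156 with traction, where the groups overlapped.

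Other genes of the cornified envelope were read from lists in the same fit. With traction in Tem1WT/WT mice, 0 of 21 other envelope precursors rose and 4 fell (edgeR, adjusted p under 0.05, with 0 higher and 10 lower at an unadjusted p under 0.05), and the median over the list was −0.76. The 4 were Tchhl1 (log2 fold change −2.48), Tchh (−1.98), Cst6 (−1.83) and Ppl (−0.76). Tchh encodes trichohyalin of the hair root sheath, Ppl periplakin, and Cst6 a cystatin that inhibits cysteine proteases. Ivl, which encodes involucrin, was at 279.6, 277 and 321 CPM in the sham group and at 40.4, 191 and 130.5 CPM with traction, without overlap, and its log2 fold change was −1.28 (edgeR adjusted p = 0.0962). Lor, which encodes loricrin, had a log2 fold change of −0.73, Flg (filaggrin) −0.82 and the transglutaminase gene Tgm1 0.96, and none of these passed the threshold. Of 17 crosslinking and cornification enzymes and inhibitors 0 rose and 1, Cst6, fell, and of 15 barrier lipid enzymes 1 rose (Ugcg) and 2 fell (Aloxe3 and Pnpla1).
Of 11 AP-1 and ETS factors 3 rose and 1 fell. Fosl1, an AP-1 subunit, was at 0.412, 0.508 and 0.999 CPM in the Tem1WT/WT sham group and at 8.42, 3.14 and 3.29 CPM with traction, and rose by 2.94 on the log2 scale (SE 0.53, edgeR adjusted p = 0.0252). Fosl1 in Tem1lacZ/lacZ mice was at 0.738, 0.332 and 0.404 CPM and at 0.468, 0.248 and 0.302 CPM with traction, where the groups overlapped. In traction scars the log2 difference of Tem1lacZ/lacZ against Tem1WT/WT mice was −3.87 (SE 0.56, edgeR adjusted p = 0.0335). Fosl2 (1.37) and Ets1 (1.23) also rose with traction in Tem1WT/WT mice, and Elf5, an ETS factor of epithelia, fell (−1.96). Whether any of these factors acts on the promoters shown above was not tested. Of 12 S100 genes of the same complex, S100a8 (5.11) and S100a9 (5.63) rose and S100a1 fell. S100a8 was at 3.49, 22.5 and 15.1 CPM in the Tem1WT/WT sham group and at 1296, 65.7 and 62.1 CPM with traction, and S100a9 at 8.51, 45.4 and 31.1 CPM and at 3935, 125 and 141 CPM. Both were without overlap, and replicate 1 stood far above the other traction libraries.

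Markers of the cells a scar can hold were read in the same way for traction in Tem1WT/WT mice. Of 13 neutrophil markers tested 8 rose and 0 fell, with sums of 145 to 169 CPM in the sham group and 9152, 933 and 535 CPM with traction. Of 17 genes of the type 17 epidermal response 7 rose and 0 fell, with sums of 71.7 to 181 CPM in the sham group and 5847, 491 and 357 CPM with traction. Of 11 suprabasal keratinocyte genes 0 were called (edgeR, with 5 lower at an unadjusted p under 0.05), and of 4 stress keratins 0 (1 higher at an unadjusted p under 0.05). The defining keratins had log2 fold changes of 0.14 for Krt5, 1.00 for Krt14, 0.48 for Krt1, −0.02 for Krt10, 1.72 for Krt6a and 1.92 for Krt16. Of 21 hair shaft and root sheath genes 0 rose and 8 fell, and all 21 were lower at an unadjusted p under 0.05. Of 9 sebaceous genes 0 rose and 2 fell, and of 10 fibroblast genes 2 rose and 0 fell. No gene of the 9 macrophage, 9 adipocyte, 10 skeletal muscle and 9 Schwann cell and nerve genes was called in edgeR. At an unadjusted p under 0.05, 10 of 10 skeletal muscle genes and 4 of 9 Schwann cell and nerve genes were lower and 2 of 9 macrophage genes higher. Over all genes tested 31.4% reached an unadjusted p under 0.05 in this comparison. The part of these changes in the Lce and Sprr results was not tested.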

How the data were processed

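Libraries were prepared from scar RNA with a stranded mRNA kit. Per the labels and the submitters' processing notes, the authors trimmed reads with fastp 0.20.0, aligned them to GRCm38/mm10 with HISAT2 2.1.0 and counted reads per gene with featureCounts 2.0.0, and they deposited raw counts, 1 file per mouse. How multi-mapping reads were counted is not given in the sources used here.

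Counts of 12 libraries were tested in R 4.3.3 with edgeR 4.0.16. Genes were kept by filterByExpr, libraries were scaled by TMM, and the 4 groups were fitted in 1 model with glmQLFit (robust) and glmQLFTest. P-values were adjusted by the Benjamini-Hochberg method over 18853 genes, and an adjusted p under 0.05 was called. The standard error is the log2 fold change divided by the square root of F. DESeq2 1.42.0, limma-voom (limma 3.58.1), other filters, scalings and left-out libraries served as alternatives. Members and gene lists were chosen with earlier results of these data known. The text names the 6 Lce and 6 Sprr genes with the highest mean CPM, Lce6a, the most abundant Lce3 gene, Sprr3 and every called gene, and others where a sentence turns on them. The results of 2 gene lists are not reported here. No libraries were copies of each other.

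On simulated counts for traction in Tem1WT/WT mice (18470 genes tested), the test called 21.1% of 76 genes changed by 1 on the log2 scale, 61.3% of 62 changed by 2 and 93.5% of 62 changed by 4, with 1 false call. The changed genes were drawn at random from those over 1 CPM. Counts were drawn independently, and no library was made to stand apart. These rates therefore need not hold for the Lce and Sprr genes.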

Additional observations from a re-analysis of the deposited data

Results flagged for a closer look

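For Sprr2f and Sprr2g the traction and sham groups were in opposite order in the Tem1WT/WT and Tem1lacZ/lacZ mice. Every Tem1WT/WT traction library lay above the mean of its sham group, and every Tem1lacZ/lacZ traction library lay below the mean of its own. The interaction on the log2 scale was −7.35 for Sprr2f (SE 2.05) and −4.96 for Sprr2g (SE 1.52), and neither passed the threshold (adjusted p = 0.548 for each in edgeR's quasi-likelihood test). Without replicate 1 of the Tem1WT/WT traction group the interaction was −2.90 for Sprr2f (SE 0.95, edgeR adjusted p = 0.558) and −2.49 for Sprr2g (SE 1.00, edgeR adjusted p = 0.590). Sprr2g, a transcribed pseudogene, was at 1.39, 1.96 and 6.70 CPM in the Tem1WT/WT sham group and at 94.8, 6.58 and 6.80 CPM with traction, where the groups overlapped. In Tem1lacZ/lacZ mice it was at 7.62, 8.73 and 5.39 CPM in the sham group and at 4.34, 2.63 and 0.566 CPM with traction, where the groups did not overlap. The largest values of both genes in Tem1WT/WT mice came from replicate 1 of the traction group.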

How the results depend on the processing

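Each result was recomputed with other filters, scalings, tests and left-out libraries, and rows with at least 95% coding identity were summed in an alternative added after seeing the data. The median log2 fold changes of Lce1, Lce3 and Sprr2b to Sprr2k for traction in Tem1WT/WT mice kept their direction in every alternative. The number of Sprr genes called for traction in Tem1WT/WT mice, 4 in the edgeR test, was 0 when every gene with at least 1 count was tested, 0 with limma-voom and 0 when the 6 libraries of that comparison were fitted alone. DESeq2 called 6 (Sprr2d, Sprr2h, Sprr2j-ps and Sprr2k higher, Sprr1a and Sprr4 lower), and upper quartile normalization called 3 (Sprr2h and Sprr2i higher, Sprr1a lower). It was 0 to 8 when single libraries were left out, with 8 without replicate 2 of the traction group. DESeq2 called 5 Lce genes there (Lce3a, Lce3b, Lce3c, Lce3f and Lce1m), and for the genotypes with traction 3 Lce genes and 2 Sprr genes among 2295 of 18853 genes called. Leaving out single libraries called 0 to 5 Sprr genes in the latter comparison, with 5 without replicate 2 of the Tem1WT/WT traction group, where 1421 of 19400 genes were called. For traction in Tem1lacZ/lacZ mice limma-voom called 1 Sprr gene, Sprr1a, among 435 of 18853 genes. The median of the Sprr genes for traction in Tem1WT/WT mice was 1.69 with limma-voom and 1.09 to 3.86 when single libraries were left out. It was −2.26 to −0.12 for the genotypes with traction and −3.02 to −0.997 for the interaction, and the value nearest 0 was each time that without replicate 1 of the Tem1WT/WT traction group. The median of the Lce genes for traction in Tem1WT/WT mice was −0.83 to 0.08, and it lay above 0 without replicate 3 of the Tem1WT/WT sham group. The number of all genes called for traction in Tem1WT/WT mice was 1725, and it was 1011 with every gene with at least 1 count, 4047 with DESeq2, 748 with limma-voom, 0 with the 6 libraries alone and 0 to 2861 with single libraries left out, with 0 without replicate 1 or replicate 2 of the Tem1WT/WT sham group.

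Replicate numbers in the labels name different mice. Of 18 pairs of same-numbered libraries 9 had a correlation of deviations over 0.1 (median 0.096, range −0.42 to 0.34). Over 36 pairs with different numbers the median was −0.019 (range −0.52 to 0.48). Whether same-numbered libraries shared a batch was not tested, and the main fit used no block. With the replicate number as a block, 1467 genes and 1 Sprr gene, Sprr1a, were called for traction in Tem1WT/WT mice. With 3 mice per group, changes of 1 on the log2 scale were mostly missed in simulated counts, so genes that were not called may still differ.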
